A study of Homo sapiens with 8 samples.

Results

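The genes described here are 6 abundant noncoding RNAs: RN7SL1, RN7SK, RMRP, RPPH1, MALAT1 and NEAT1. They were taken by gene name from the probes of 8 two-colour Agilent expression arrays, leaving out control spots, which gave 12 probes of 6 genes among 58201 probes of 43317 gene names. RN7SL1 was chosen by its ratio of treated over mock RNA, which changes sign between arrays, so the ratios below are a description and carry no test. On each array Cy3 carried the RNA of mock cells and Cy5 that of treated cells of the same line, and no array had its dyes exchanged.

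The prostate cancer lines PC3 and C4-2, the kidney cancer line 786-O and the bladder cancer line T24 were used. PC3 cells were given bisamide (CCT251236), a small molecule described as an inhibitor of pirin and of the HSF1 stress pathway, for 24 h or 48 h, and in another culture the microRNA miR-125b-1-3p. C4-2 received miR-199-3p, 786-O received miR-532-5p or miR-532-3p, and T24 received miR-140-5p or miR-140-3p, all by lipid transfection. The labels call every mock channel untransfected, so the transfection itself and the microRNA cannot be told apart. The bisamide dose and the time after microRNA transfection are not given in the sources used here. Each of the 8 groups held 1 array, no p-value was computed, and precision is limited by the number of arrays. A ratio of bulk RNA also cannot tell fewer cells with an RNA from less of it per cell.

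RN7SL1 is the RNA backbone of the signal recognition particle, which brings ribosomes making secreted and membrane proteins to the endoplasmic reticulum. RN7SK holds the kinase P-TEFb inactive together with HEXIM proteins and so restrains elongation by RNA polymerase II. RMRP and RPPH1 are the RNA subunits of RNase MRP, which cleaves ribosomal RNA precursors, and of RNase P, which trims the 5′ end of transfer RNA precursors. These short RNAs are made by RNA polymerase III and have no long poly(A) tail. MALAT1 and NEAT1 are long nuclear RNAs of RNA polymerase II: MALAT1 lies in nuclear speckles, and NEAT1 builds paraspeckles through a long isoform and also has a short polyadenylated isoform. The labelling kit named in the labels starts reverse transcription from an oligo(dT) primer, so how well an RNA without a poly(A) tail is copied depends on how it is primed.

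Probes are shown because each value below is the brightness of 1 such 60-base sequence. RN7SL1 has 1 probe, and the accessions listed for it belong to both RN7SL1 and RN7SL2, so these near-identical copies cannot be told apart. The RN7SK probe covers bases 242 to 301 of 332 (chr6:52860659-52860718 of GRCh37, plus strand), the RMRP probe bases 18 to 77 of 270 (chr9:35657939-35657998, minus strand), and the RPPH1 probe bases 274 to 333 of 341 (chr14:20811238-20811297, minus strand). Lengths are those of the RefSeq gene table of GRCh38.p14.
RN7SK: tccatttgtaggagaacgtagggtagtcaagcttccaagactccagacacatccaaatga
RMRP: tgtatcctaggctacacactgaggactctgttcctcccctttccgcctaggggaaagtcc
RPPH1: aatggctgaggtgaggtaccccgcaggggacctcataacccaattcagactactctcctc
NEAT1 has 3 probes on the plus strand of chromosome 11. Those that start 1899 and 1940 bases from the 5′ end of the RNA (chr11:65192168-65192227 and chr11:65192209-65192268) overlap by 19 bases, in capitals, and are no independent measurement of each other. The brightest probe starts 3616 bases from the 5′ end (chr11:65193885-65193944).
NEAT1 from 1899: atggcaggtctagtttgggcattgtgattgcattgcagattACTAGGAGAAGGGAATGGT
NEAT1 from 1940: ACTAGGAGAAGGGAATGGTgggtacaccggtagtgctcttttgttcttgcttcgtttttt
NEAT1 from 3616: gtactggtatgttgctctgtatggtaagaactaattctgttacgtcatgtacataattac
MALAT1 has 4 probes, starting 3386, 5747, 8481 and 8638 bases from its 5′ end, the brightest being that from 5747 (chr11:65270980-65271039, plus strand).
MALAT1 from 5747: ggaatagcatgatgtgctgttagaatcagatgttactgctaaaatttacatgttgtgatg

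RPPH1 has a further probe that was designed from an expressed sequence tag (chr14:20811622-20811681). It lies on the strand opposite to RPPH1, 52 to 111 bases upstream of its 5′ end, and was not well above background in either channel of any array, with raw Cy3 signals of 18.4 to 21.3. It therefore does not measure RPPH1. The other 11 probes were well above background in both channels of all 8 arrays. No probe of another gene shared a run of 20 or more bases with any of the 12 probes. Only probes of the array were compared. The probes were not aligned to the genome, so matches to further copies and pseudogenes of RN7SL1 were not checked.

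Each gene was represented by its brightest probe, and between 15442 and 19240 genes of an array were well above background in both channels. No spot was saturated, and 300 probes printed in 10 spots each had a median SD of 0.0389 to 0.0527 on the log2 scale, which covers only the spread within an array. The 12 probes were each printed once. The PC3 mock channels, which are the nearest to repeats that these arrays hold, had a pooled SD of 0.157 after normalization over 17772 genes. The labels do not say whether mock channels of a line came from separate cultures. The prostate gene KLK3 marked the C4-2 mock, with a raw Cy3 signal of 13592 against 21.4 to 22.6 in the other lines, and CDH6, a cadherin of kidney tubule, was well above background in Cy3 in 786-O alone, at 153 to 164. PAX8 was brighter in T24 (390 to 423) than in 786-O (235 to 239), so it did not set the renal line apart.

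RN7SL1 spread further over the arrays than nearly any other gene. Its log2 ratio of treated over mock RNA was 0.74 with bisamide at 24 h and −1.16 at 48 h. It was 2.09 in C4-2 (miR-199-3p) and 0.41 in PC3 (miR-125b-1-3p). In 786-O it was 0.38 for the 5p and −0.24 for the 3p strand of miR-532, and in T24 −0.02 for the 5p and 0.46 for the 3p strand of miR-140. The ratio after loess was thus above 0 on 5 arrays and below 0 on 3, of which the miR-140-5p array lay within the spread of repeated spots. In raw signal the treated channel was the brighter on every array. In C4-2 with miR-199-3p, RN7SL1 had the highest ratio of the 15686 genes measured, a 4.25-fold difference. In PC3 with bisamide at 48 h it had the second lowest of 19020, a 2.23-fold difference in the opposite direction, whereas at 24 h it ranked 74th from the top of 19240, 1.67-fold higher. From its lowest to its highest array it spanned 3.25 on the log2 scale, and of 12579 genes measured on all 8 arrays 7 spanned as much, itself included, the median span being 0.45.

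**Figure D1:**
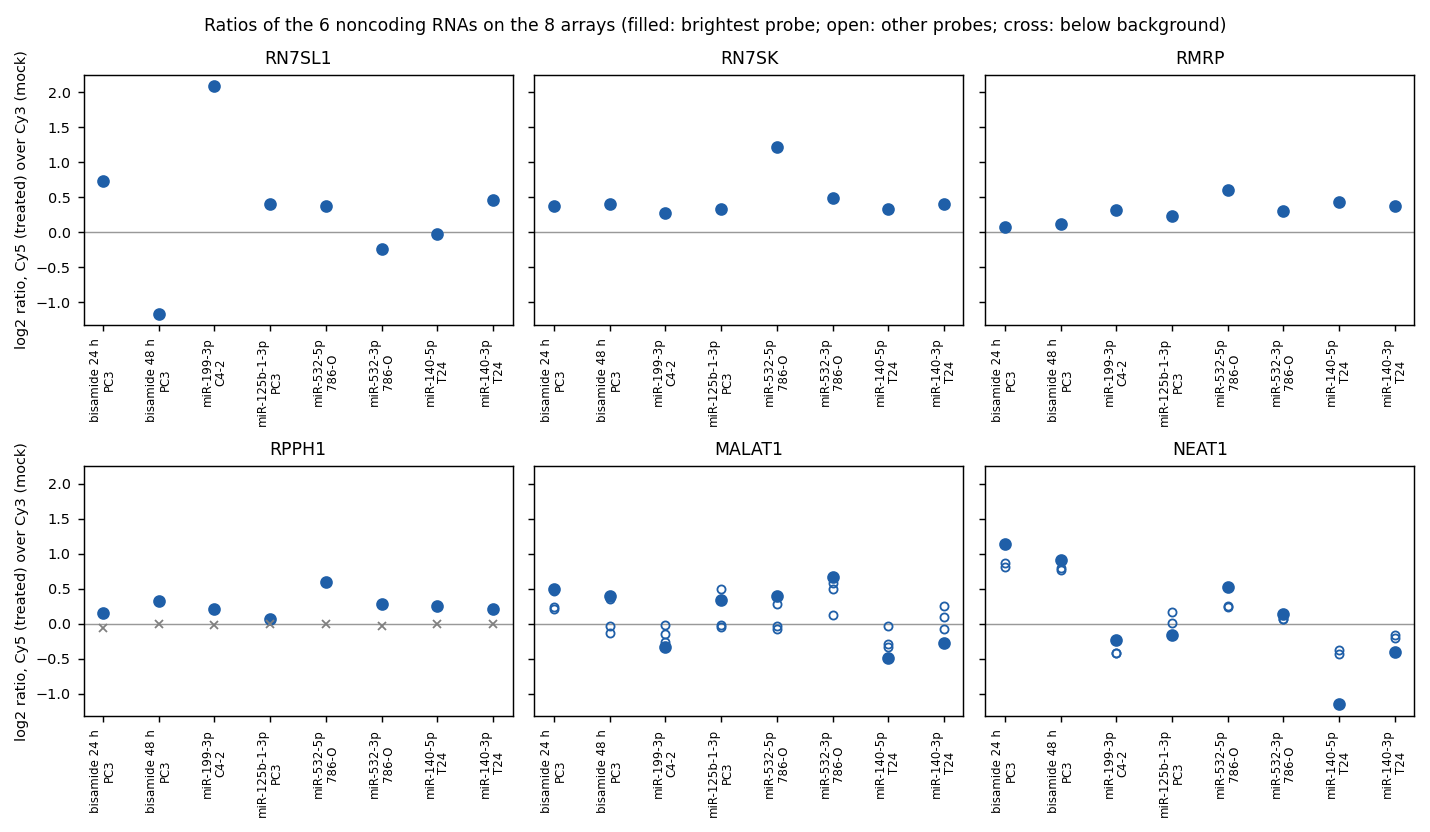
The vertical axis is the log2 ratio of treated (Cy5) over mock (Cy3) RNA after loess, and each column is 1 of the 8 arrays. Filled points are the brightest probe of each gene, open points its other probes and crosses the RPPH1 probe that was not above background. RN7SL1 runs from −1.16 to 2.09, RN7SK stands out on the miR-532-5p array at 1.22, and NEAT1 runs from −1.15 to 1.13.

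The raw signals show which channel moved. In PC3, the RN7SL1 spot read 19365 in Cy3 and 73907 in Cy5 on the 24 h array, and 37215 in Cy3 and 38064 in Cy5 on the 48 h array. The change of sign thus came with a mock signal 1.92-fold higher and a treated signal 0.515-fold as high at 48 h as at 24 h. The third PC3 array, with miR-125b-1-3p, read 38047 in Cy3, 1.02-fold the 48 h mock, and 109970 in Cy5. Relative to the median gene, the log2 difference of the 48 h from the 24 h mock was 0.96 for RN7SL1, when the SD over 18434 genes was 0.208 and 61 genes differed by as much. The treated channels of the same arrays differed by −0.91, as much as 143 of 21826 genes. Between the bisamide arrays, the mock and the treated RNA of PC3 therefore both differed at RN7SL1, by similar amounts and in opposite directions. The miR-125b-1-3p array differed from the 24 h array by 0.96 in the mock and 0.62 in the treated channel, and from the 48 h array by −0.01 and 1.53.

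The other lines gave no such difference between mock channels. The 786-O mocks read 8497 and 8062 at RN7SL1 and the T24 mocks 7876 and 7521, a 1.05-fold difference in both lines. In T24, the treated signal was 17306 for the 5p and 23378 for the 3p strand of miR-140, and in 786-O it was 11139 with miR-532-5p and 12028 with miR-532-3p. C4-2 had the lowest mock signal, 4198, beside a treated signal of 34469, and no second C4-2 mock channel was available to set beside it. After loess and scaling between arrays, the mean mock level of RN7SL1 was 15.21 in PC3, 14.05 in 786-O, 13.30 in T24 and 12.57 in C4-2 on the log2 scale. The 3 PC3 mocks lay between 14.53 and 15.58, a range of 1.05, which is wider than the gap from the lowest of them to the higher of the 786-O mocks, at 14.10. The 786-O and T24 mocks did not overlap, with ranges of 0.10 and 0.06.

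**Figure D2:**
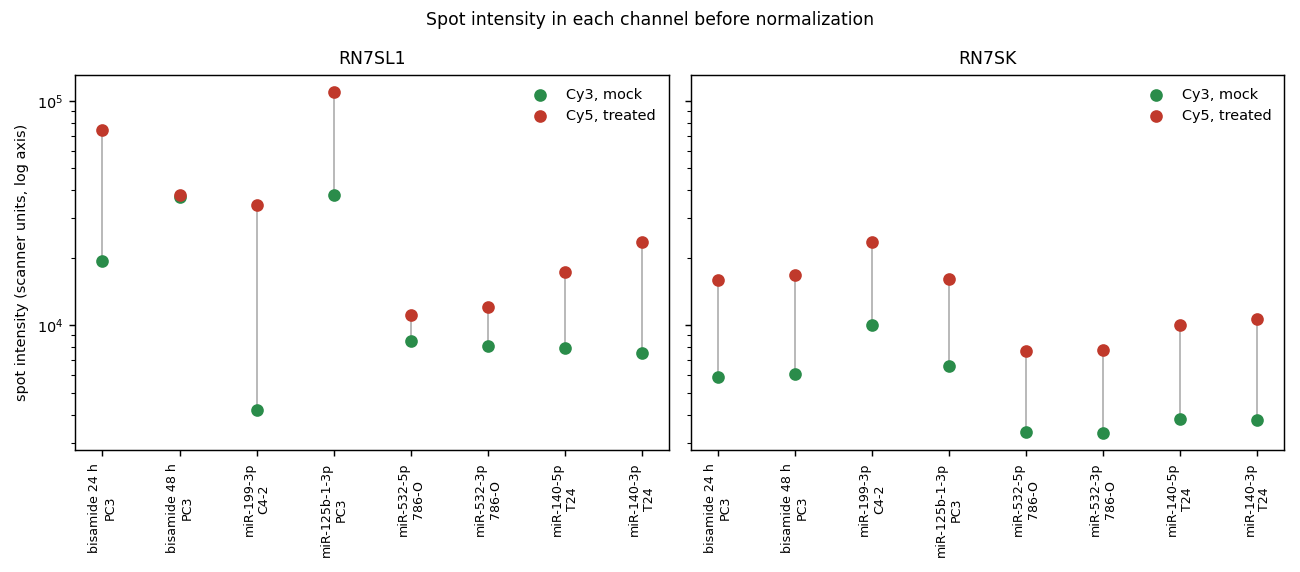
Spot intensity of RN7SL1 and RN7SK in the mock (Cy3, green) and treated (Cy5, red) channel of each array, before any correction, on a log axis in scanner units. The RN7SL1 mock ranges from 4198 to 38047 and its 2 channels nearly meet on the bisamide 48 h array, while the 2 RN7SK channels keep a similar distance on all 8 arrays.

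RN7SK behaved otherwise: treated RNA was brighter on all 8 arrays, by a similar amount on 7 of them. Its log2 ratio was 0.38 and 0.41 with bisamide at 24 h and 48 h, 0.27 in C4-2 (miR-199-3p) and 0.33 in PC3 (miR-125b-1-3p). The 5p and 3p strands gave 1.22 and 0.49 for miR-532 in 786-O, and 0.33 and 0.41 for miR-140 in T24. The miR-532-5p array was the exception, a 2.34-fold difference that ranked 16th from the top of 15669 genes. Before loess, with each array centred on its median, the ratio of RN7SK was 1.21 to 1.43 on all 8 arrays, a span of 0.22 against a median span of 0.86 over genes, and 245 of 12579 genes spanned as little. On the miR-532-5p array it was 1.22 both before and after loess. The raw 786-O signals of RN7SK were 3338 and 3311 in the mocks and 7710 and 7742 in the treated RNA with miR-532-5p and miR-532-3p, so both channels agreed within 1.01-fold between the strands. The difference between the 0.49 and the 1.22 thus lies in the loess curve at this intensity, 0.72 with miR-532-3p and 0.00 with miR-532-5p.

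RMRP and RPPH1 were also brighter in treated RNA on all 8 arrays, by less. RMRP had its lowest log2 ratio with bisamide at 24 h, 0.07, its highest with miR-532-5p, 0.61, and a median of 0.32. RPPH1 was lowest with miR-125b-1-3p, 0.06, highest with miR-532-5p, 0.59, and had a median of 0.23. The miR-532-5p array was the highest of RN7SK, RMRP and RPPH1 alike. The scanner software's own log2 ratio on this array was larger, 1.06 for RPPH1 and 0.83 for RMRP. Before loess, the miR-532-5p array was the lowest of the 8 for both, at 0.48 for RMRP and 0.49 for RPPH1. Which array stands apart for these RNAs depends on the intensity step.

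The ratio rose with intensity on 7 arrays and hardly on the miR-532-5p array. Before loess, the median ratio of genes with a mean log2 intensity of 6 to 7 was 0.13 to 0.22 on those 7 arrays, and that of genes from 14 to 15 was 1.01 to 1.37. On the miR-532-5p array the same medians were −0.02 and 0.46. Loess took 1.11 and 1.12 from RN7SL1 on the bisamide arrays and 0.03 on the miR-532-5p array. Few genes lie at that height: at an intensity of 15 to 16, 56 genes were measured with bisamide at 24 h and 55 at 48 h, and their median after loess was still 0.20 and 0.33. RN7SL1, at an intensity of 15.20 with bisamide at 48 h, therefore lay further below its neighbours in intensity than its −1.16 shows. Its 0.74 with bisamide at 24 h stood less far above them, and so did its 0.41 with miR-125b-1-3p, at an intensity of 15.98, where the median of 40 such genes was 0.27. Before loess, RN7SL1 was 1.85 and −0.04 with bisamide at 24 h and 48 h, 3.00 in C4-2 (miR-199-3p) and 1.46 in PC3 (miR-125b-1-3p). The 5p and 3p strands gave 0.41 and 0.57 for miR-532 and 1.09 and 1.58 for miR-140. The highest and the lowest array stayed so without loess, and the negative ratios with miR-532-3p and miR-140-5p did not stay below 0. The −0.04 with bisamide at 48 h was no larger than the median SD of repeated spots on that array, 0.04. Its clear negative sign was therefore not seen under median centring alone. The scanner software's own log2 ratio on that array, which is dye-normalized, was −1.26.

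**Figure D3:**
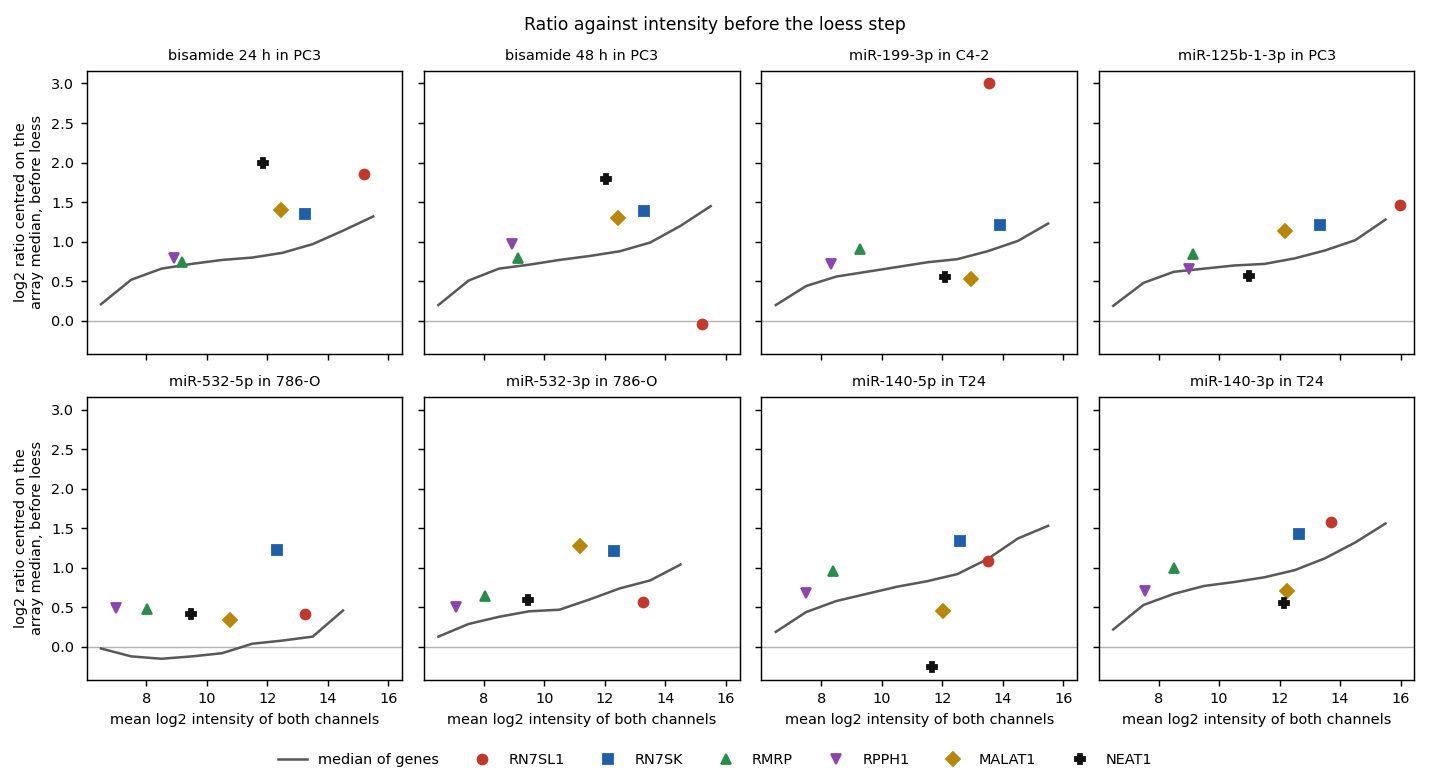
Each panel is 1 array: the horizontal axis is the mean log2 intensity of both channels and the vertical axis the log2 ratio centred on the array's median, before loess. The line joins the median ratio of genes in bins of intensity and the symbols are the brightest probes of the 6 genes. RN7SL1 lies at −0.04, far under the line, with bisamide at 48 h and at 3.00, far above it, with miR-199-3p.

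NEAT1 was the member with the next largest span, 2.27, and 31 of the 12579 genes spanned as much. At the brightest probe its log2 ratio was 1.13 and 0.91 with bisamide at 24 h and 48 h, −0.24 in C4-2 (miR-199-3p) and −0.16 in PC3 (miR-125b-1-3p). The 5p and 3p strands gave 0.52 and 0.14 for miR-532 in 786-O, and −1.15 and −0.41 for miR-140 in T24. The RNA was thus higher with bisamide at both times, ranking 25th and 21st from the top, and lower with miR-140-5p, ranking 37th from the bottom of 17624 genes. In raw signal, the bisamide arrays read 1769 and 2186 in the mocks against 7527 and 8041 in the treated RNA, and the miR-140-5p array 3443 against 2986. The T24 mocks differed little (3443 and 3638), while the treated RNA read 2986 for the 5p and 5593 for the 3p strand of miR-140, 1.87-fold apart.

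The overlapping probes nearer the 5′ end had the same sign as the brightest probe on 7 of 8 arrays and smaller sizes where the change was large. At the probes that start 1899 and 1940 bases from the 5′ end, the log2 ratio was 0.81 and 0.87 with bisamide at 24 h, 0.80 and 0.77 at 48 h, and −0.43 and −0.38 with miR-140-5p. With miR-125b-1-3p they stood at 0.01 and 0.17 against −0.16, values near 0 throughout. These probes were dimmer, with raw Cy3 signals of 54.2 to 847, and the normexp offset of 50 draws dim ratios towards 0: with an offset of 0 the miR-140-5p ratios were −0.62 and −0.56.

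The array also holds sense probes under other names within the NEAT1 span, chosen for reading here after the NEAT1 values were seen. The probe named ENST00000501122, 3854 bases from the 5′ end (chr11:65194123-65194182), had a log2 ratio of 0.15 and 0.14 with bisamide at 24 h and 48 h and −0.07 with miR-140-5p. The probe named MIR612, 21700 bases from the 5′ end (chr11:65211969-65212028), had −0.04, 0.01 and 0.01. Which of the NEAT1 isoforms each of these probes reads was not determined here. The ENST00000501122 and MIR612 probes were well above background in both channels of all 8 arrays but dim, with raw Cy3 signals of 39.3 to 77.6 and 29.9 to 37.3. With an offset of 0, the former gave 0.28, 0.23 and −0.17 and the latter −0.12, 0.05 and 0.06. A difference as large as at the probes named NEAT1 was therefore not seen at these downstream probes, whose brightness leaves less room for one. The ENST00000501122 probe had the same signs as those probes with bisamide and miR-140-5p, at smaller size.

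**Figure D4:**
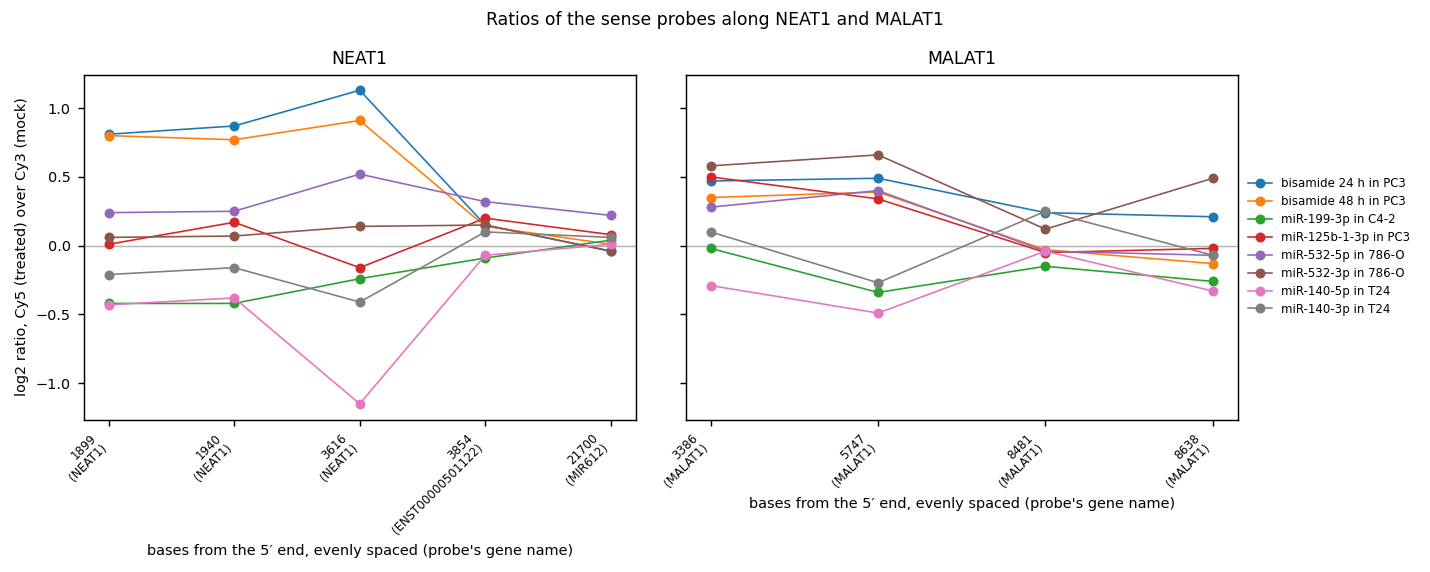
The vertical axis is the log2 ratio of treated over mock RNA, and the horizontal axis gives the sense probes of the NEAT1 and MALAT1 spans in order from the 5′ end, evenly spaced, each with its distance in bases and its gene name. Each line is 1 array. The bisamide arrays lie at 0.77 to 1.13 over the 3 NEAT1 probes and at −0.04 to 0.15 over the downstream probes.

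MALAT1 varied less and its probes did not move as one. At the brightest probe the log2 ratio was 0.49 and 0.39 with bisamide at 24 h and 48 h, −0.34 in C4-2 (miR-199-3p) and 0.34 in PC3 (miR-125b-1-3p). The 5p and 3p strands gave 0.40 and 0.66 for miR-532 in 786-O, and −0.49 and −0.27 for miR-140 in T24. After loess it was higher on the PC3 and 786-O arrays and lower on the C4-2 and T24 arrays. Before loess it was above 0 on every array, at 0.53 in C4-2 and at 0.45 and 0.71 in T24 (5p and 3p strands). Genes at an intensity of 12 to 13 then had medians of 0.78 in C4-2 and of 0.92 and 0.97 in T24. MALAT1 was thus lower there only relative to genes of like intensity. The probe that starts 3386 bases from the 5′ end gave 0.47, 0.35, −0.02, 0.50, 0.28, 0.58, −0.29 and 0.10 on the arrays in the same order, and differed from the brightest probe in sign on the miR-140-3p array. The probes nearest the 3′ end gave smaller ratios, −0.15 to 0.25 at the one from 8481 and −0.33 to 0.49 at the one from 8638 bases. With bisamide at 48 h they lay at −0.03 and −0.13, on the other side of 0 from the upstream probes. The ratios of MALAT1 and NEAT1 had Pearson's r of 0.783 over the 8 arrays, as a description. They had the same sign on 7 of them and opposite signs with miR-125b-1-3p (0.34 and −0.16), and the genes neighbour each other on chromosome 11.

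Few of the 6 genes had a log2 ratio past 1.5, higher or lower, the size the study used to select genes. RN7SL1 was past it with miR-199-3p, where 0.121% of the genes measured were. None of the 6 was past it with bisamide at 24 h (0.078% of all genes) or 48 h (0.0368%), with miR-125b-1-3p (0.0107%), with the strands of miR-532 (5p 0.102%, 3p 0.149%) or with those of miR-140 (5p 0.142%, 3p 0.0114%). Past 1.0 there was 1 of the 6 on 5 arrays. These were NEAT1 with bisamide at 24 h (background 0.198%) and miR-140-5p (0.443%), RN7SL1 with bisamide at 48 h (0.116%) and miR-199-3p (0.65%), and RN7SK with miR-532-5p (0.804%). On the other arrays none was past 1.0: PC3 with miR-125b-1-3p (0.177%) and the 3p strands of miR-532 (0.641%) and miR-140 (0.177%). Because the genes were chosen with these ratios in view, nothing is read from those counts. RN7SK, RMRP and RPPH1 were above 0 on every array, as were 952 of the 12579 genes measured on all 8 (7.57%).

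The mRNAs of the proteins that bind these RNAs were read on the same arrays. Those of all 8 signal recognition particle proteins and receptor subunits were measured on every array, and their median log2 ratio ranged from −0.24 with miR-140-3p to 0.08, with none past 1.5. With miR-199-3p, where RN7SL1 stood at 2.09, 6 of 8 were above 0 at a median of 0.08, beside 52.7% of all genes and a median of 0.01. With bisamide at 48 h, where RN7SL1 stood at −1.16, 5 of 8 were above 0 at a median of 0.04, beside 54.3% of all genes. On the array farthest from all genes, that of miR-140-3p, SRP14, which binds the Alu domain of the RNA with SRP9, was lowest at −0.55, and SRPR, the receptor subunit that docks the particle, was highest at 0.70. SRPR was above 0 on all 8 arrays, from 0.08 to 0.70.

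The mRNAs of the 7 proteins of the 7SK particle and P-TEFb had medians of −0.21 to 0.05. With miR-140-3p, HEXIM2, an inhibitor of P-TEFb, was lowest at −0.36 and CCNT1, its cyclin T1, highest at 0.19. With miR-532-5p, where RN7SK stood highest, 2 of 6 measured were above 0 at a median of −0.07, beside 50.1% of all genes. Of the proteins of RNase P and MRP, 9 or 10 were measured, with medians of −0.20 to 0.07, and on the miR-532-5p array the shared subunit POP5 was lowest at −0.70 and RPP14 highest at 0.23. The 32 genes of RNA polymerase III and its factors had medians of −0.09 to 0.05. On the miR-532-5p array its small subunit POLR3K stood at −0.47 and its largest subunit POLR3A at 0.57. None of these passed 1.5 on any array.

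Of the mRNAs of 14 paraspeckle proteins, all measured, 6 were above 0 with bisamide at 24 h and 4 at 48 h, at medians of −0.07 and −0.10, beside 54.2% and 54.3% of all genes. On these arrays NEAT1 stood at 1.13 and 0.91. With miR-140-5p, where NEAT1 stood at −1.15, 8 of 14 were above 0 at a median of 0.05, beside 52.4% of all genes. NONO, a core paraspeckle protein, was the lowest with miR-532-5p at −0.66, and the chromatin remodeller SMARCA4 the highest at 0.05. The 10 nuclear speckle proteins had medians of −0.17 to 0.09. With miR-532-5p, the scaffold protein SRRM2 stood at −0.71 and the splicing factor U2AF2 at 0.20.

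**Figure D5:**
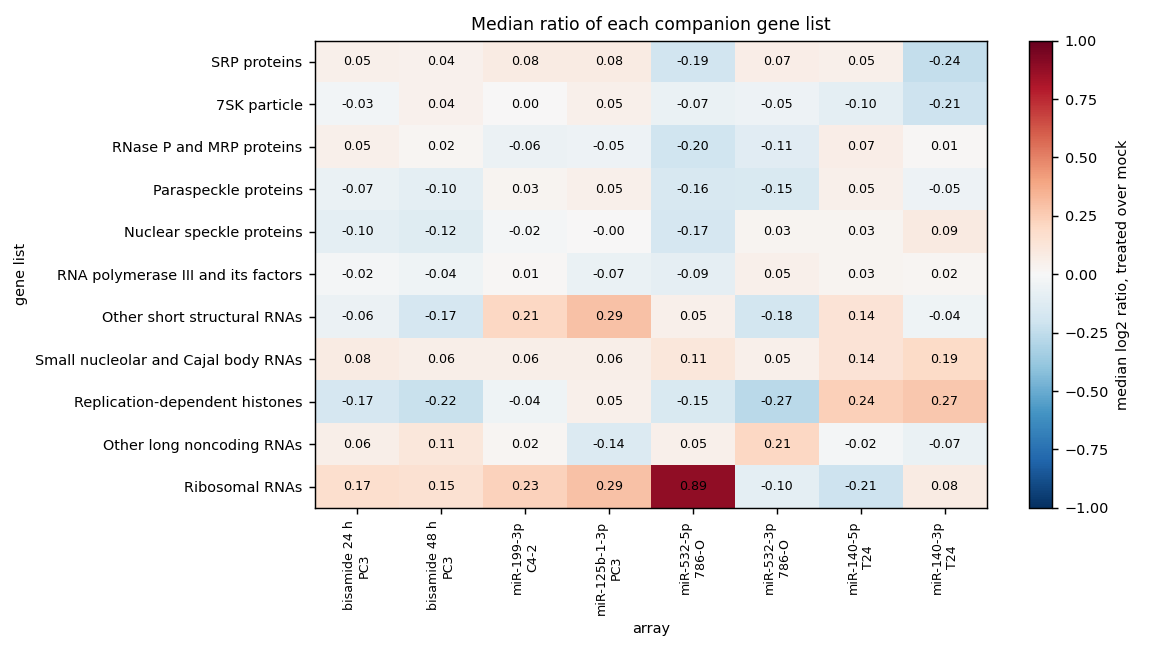
Median log2 ratio of treated over mock RNA for 11 gene lists (rows) on the 8 arrays (columns), over the genes of each list well above background in both channels, with the value in each cell and colour from blue (−1) to red (1). The largest median is that of the ribosomal RNAs with miR-532-5p, 0.89, and the protein lists lie between −0.24 and 0.09.

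Other structural RNAs were read beside the 6. The ribosomal RNAs, 3 probes that were bright in every mock, had a median of 0.89 with miR-532-5p, where RNA18S5 was lowest at 0.47 and RNA28S5 highest at 1.04, and of −0.21 to 0.29 on the other arrays. They were thus high on the array on which RN7SK was high. With miR-199-3p, where RN7SL1 was highest, their median was 0.23, and with bisamide at 48 h it was 0.15. Before loess, the ribosomal median with miR-532-5p was 0.82 and that on the other arrays 0.53 to 1.17, so this array was not the highest then.

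Of 306 small nucleolar and Cajal body RNAs, which guide the modification of ribosomal and spliceosomal RNA, 183 to 220 were measured. After loess their median was above 0 on all 8 arrays, from 0.05 to 0.19. Between 65.6% and 87.9% of them were above 0, against at most 54.6% of all genes on any array. With miR-140-3p, SNORD47 was then lowest at −0.15 and SCARNA14 highest at 1.53. Before loess the median was above that of all genes with miR-532-5p (0.09 against −0.03) and miR-140 (5p 0.45 against 0.35, 3p 0.55 against 0.45). It was below that of all genes with bisamide (24 h 0.42 against 0.45, 48 h 0.38 against 0.44). It was also below with miR-125b-1-3p (0.36 against 0.42) and miR-532-3p (0.15 against 0.17), and equal at 0.30 with miR-199-3p. Other short structural RNAs, 15 to 18 of 22 measured, had medians of −0.18 to 0.29. On the miR-125b-1-3p array, the minor spliceosomal RNA RNU6ATAC stood at −0.33 and SNAR-B2, of a family of short RNA polymerase III transcripts, at 0.68. The 7 SNAR genes measured on all arrays, whose near-identical sequences may share signal, had 1 sign on each array, with a median of 0.60 for miR-125b-1-3p, of −0.89 for miR-140-5p, with 0.30 for miR-199-3p and −0.21 for bisamide at 48 h. With miR-532-3p their median was −0.44, and on these 5 arrays it had the sign of RN7SL1. On 1 of them, that of miR-140-5p, RN7SL1 stood at −0.02, within the spread of repeated spots. The SNAR median had the opposite sign with bisamide at 24 h (−0.16), miR-532-5p (−0.31) and miR-140-3p (−0.13).

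Replication-dependent histone RNAs, which end in a stem-loop and not in a poly(A) tail, had medians of −0.27 with miR-532-3p to 0.27 with miR-140-3p over 59 to 63 measured genes. With miR-199-3p their median was −0.04 and with bisamide at 48 h −0.22, when at 24 h it was −0.17, so the change of sign of RN7SL1 between the bisamide arrays was not shared by them. On the miR-532-3p array HIST1H3D stood at −0.79 and HIST1H2BK at 0.48. Other long noncoding RNAs, 22 to 24 of 25 measured, had medians of −0.14 to 0.21, and with miR-532-3p SNHG12 was lowest at −0.37 and EPB41L4A-AS1 highest at 0.78. GAS5, a host gene of small nucleolar RNAs, stood at 0.56 and 0.61 with bisamide at 24 h and 48 h. No gene name matched the mitochondrial list.

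The genes whose log2 ratios most resembled those of RN7SL1 over the 8 arrays, among 10118 other named genes measured on all of them, were PRDX2 (Pearson's r of 0.957), TMEM45A (0.935), TEAD1 (0.919), INADL (0.917) and FBXO24 (0.912). Their ratios spanned far less: PRDX2, a peroxiredoxin, ran from −0.25 to 0.15 and TMEM45A, a transmembrane protein gene, from −0.27 to 0.88. These r are the highest of 10118 candidates over 8 arrays, and they are given as a description. INADL, which encodes a scaffold protein of tight junctions, is also the gene with a probe that shares 19 bases with that of RN7SL1, the longest run shared with a probe of any other gene. That probe gave 0.43 and −0.06 with bisamide at 24 h and 48 h and 0.52 with miR-199-3p. The second INADL probe, which lacks the run (chr1:62628634-62628693), gave 0.02, −0.01 and 0.12, had r of 0.504 with RN7SL1, and was well above background in both channels on 4 arrays, at raw Cy3 signals of 23.1 to 43.5. The part of the shared bases in the signal was not tested. Over all 19 probes that share 12 or more bases with the RN7SL1 probe, on either strand, 11 or 12 were measured on an array, and their median was 0.05 with miR-199-3p and 0.08 with bisamide at 24 h and at 48 h.

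The nearest patterns of the other genes were of like size in r. For RN7SK they were HSD3B7 (0.961), CRKL (0.960) and NINJ1 (0.950), and for RMRP SH2B3 (0.970), SLC9A4 (0.963) and LGALS7 (0.961). For RPPH1 they were FZD9 (0.955), NINJ1 (0.950) and UQCR11 (0.947). NINJ1 stood near both RN7SK and RPPH1, with 0.54 on the miR-532-5p array and −0.18 to 0.06 on the others. MALAT1 was nearest to GPCPD1 (0.976) and CSNK1G3 (0.974), and NEAT1 to EXOC1 (0.976), CHURC1 (0.954) and AP5Z1 (0.952). Among the 6 themselves, RN7SK and RPPH1 had r of 0.886 and RN7SK and RMRP 0.661. RN7SK, RMRP and RPPH1 were all highest on the miR-532-5p array, at 1.22, 0.61 and 0.59. How far their r rest on that array was not tested. RN7SL1 had r between −0.407 (MALAT1) and 0.160 (RMRP) with the others.

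The order of the lines by mock level of the other 5 genes depended on the scaling. On the log2 scale after loess and scaling between arrays, RN7SK stood at 13.88 in C4-2, at 12.78 and 12.87 in 786-O, at 12.42 to 12.55 in PC3 and at 12.17 and 12.21 in T24. NEAT1 was highest in C4-2 at 12.62 and in T24 at 12.06 and 12.11, and lower in PC3, at 10.37 to 10.95, and 786-O, at 10.20 and 10.30. PC3 and 786-O neighboured each other closely for NEAT1, their nearest mocks being no further apart than PC3 mocks among themselves. MALAT1 was highest in C4-2 at 13.29, then T24 at 12.14, then 786-O at 11.61 and PC3 at 11.31 to 11.66, the last pair overlapping. RMRP was highest in C4-2 at 9.80, and RPPH1 in C4-2 at 8.89. On this scale the single C4-2 mock was the highest for these 5 genes and the lowest for RN7SL1. In raw Cy3 signal, C4-2 was again the lowest for RN7SL1 and the highest for RN7SK, RMRP and MALAT1. For RPPH1, however, PC3 was higher (308 to 365) than C4-2 (214), and for NEAT1 the C4-2 mock (3559) lay between those of T24 (3443 and 3638). The raw RN7SK signal was lowest in 786-O, at 3311 and 3338, then 3787 and 3814 in T24 and 5880 to 6595 in PC3, so the order of these 3 lines changed with the scaling. PC3 and 786-O also lay apart in raw NEAT1 signal, at 1581 to 2186 and at 539 and 584.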

How the data were processed

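RNA was measured on 8 two-colour arrays, 1 for each group. Per the file headers, the authors read them with Agilent Feature Extraction 11.5.1.1, and the deposited files hold the mean intensity and local background of each spot on a linear scale, not normalized, with coordinates of GRCh37. The deposited log10 ratio of Cy5 over Cy3 is the scanner software's own, already background-subtracted and dye-normalized, and the deposited series table held the same log10 values on every array.

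Intensities were corrected with normexp (offset 50) and normalized within each array by loess (span 0.3) in limma 3.58.1 and R 4.3.3, which gave log2 ratios of treated over mock from the deposited intensities. Control spots and the 126 to 181 outlier spots of an array were left out, and spots of a probe were averaged. Mock levels were scaled between arrays by the Aquantile method, and raw signals are given without correction. A gene was represented by the probe of highest mean intensity, and counted when well above background in both channels. The steps were checked on simulated arrays whose ratio fell with intensity, unlike the rise described above. The bright end where RN7SL1 lies was not checked by itself. As 1 array stood for a group, no test was made.

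The 6 genes and all companion lists were chosen with earlier results of these data known. Named were all probes of the 6 genes, the genes of nearest pattern (3, or 5 for RN7SL1), the highest and lowest member of each list on the array where its median lay farthest from that of all genes, and line markers. GAS5, SRPR across arrays, the SNAR family, INADL's second probe, the probes under other names in NEAT1 and the probes sharing 12 bases were added after values were seen. A gene and a probe sequence that these rules name are not reported here. Alternatives covered background correction, loess, scanner ratios, probe choice, filters and the threshold.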

Additional observations from a re-analysis of the deposited data

Results flagged for a closer look

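After loess, RN7SL1 had opposite signs at the 2 times of bisamide in PC3, with a log2 ratio of 0.74 at 24 h and −1.16 at 48 h, a difference of −1.90. Before loess the ratios were 1.85 and −0.04, the latter near 0. The difference was not tested, since each time had 1 array, and RN7SL1 was chosen for this change of sign. Beside it stands the mock RNA of the same arrays, which differed by 0.96 at RN7SL1 relative to the median gene, with the treated RNA differing by −0.91. The part of the mock RNA, of RNA extraction and of labelling in the difference was not tested. No other of the 6 genes had opposite signs past 0.5 in size on the bisamide pair, the miR-532 pair or the miR-140 pair.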

How the results depend on the processing

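Median centring in place of loess moved RN7SL1 on 7 arrays: to 1.85 and −0.04 with bisamide at 24 h and 48 h, 3.00 in C4-2 (miR-199-3p), 1.46 in PC3 (miR-125b-1-3p), 0.57 for the 3p strand of miR-532, and 1.09 and 1.58 for the 5p and 3p strands of miR-140. Taking away each gene's median over the other arrays gave 0.36 and −1.57 at the bisamide times, 1.71 in C4-2 (miR-199-3p), 0.03 in PC3 (miR-125b-1-3p), −0.03 and −0.65 for the 5p and 3p strands of miR-532, and −0.44 and 0.08 for those of miR-140. The other alternatives kept RN7SL1 within 0.157, the SD of the PC3 mocks, on every array, and the value past 1.5 with miR-199-3p kept its direction under all 13. The number of the 6 genes past 1.5 rose under median centring to 2 with bisamide at 24 h, 1 at 48 h and 1 with miR-140-3p, and under the subtraction of the other arrays' median to 1 with bisamide at 48 h. The share of all genes past 1.5 under these settings is not given here, so nothing is read from the rise. Median centring keeps the rise of the ratio with intensity. Past 1.5 under it were RN7SL1 (1.85) and NEAT1 (1.99) at 24 h, NEAT1 (1.79) at 48 h and RN7SL1 (1.58) with miR-140-3p. At 24 h, genes in the intensity bin of RN7SL1 then had a median of 1.32 and those in the bin of NEAT1 0.80. The median was 0.88 in the bin of NEAT1 at 48 h and 1.12 in that of RN7SL1 with miR-140-3p. With a threshold of 1.0 after loess, the number of the 6 genes was 1 with bisamide at 24 h, bisamide at 48 h, miR-532-5p and miR-140-5p. It stayed at 1 with miR-199-3p. The shares of all genes past 1.0 are given above. Of 520 values of the other 5 genes under the alternatives, 104 moved by more than that SD, 35 of them under median centring and 36 under the subtraction of the other arrays' median, and of 1144 list medians 104 moved, 74 under median centring. No paired analysis was possible because every treatment had a single array. Dye and treatment cannot be told apart without swapped dyes, and a ratio that is above 0 on all arrays, as for RN7SK, RMRP and RPPH1, carries both.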
